A study of Rattus norvegicus with 4 samples.

Results

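The scavenger receptors for inhaled particles were taken as 10 genes: Msr1, Marco, Colec12, Cd36, Scarb1, Scarb2, Cd68, Cd163, Mrc1 and Stab1. Every non-control spot whose RefSeq transcript accession belongs to a member was used. This gave 9 of the 10 genes, with 11 probes and 20 spots, out of 16581 genes and 21109 probes that could be named. No probe was named for Stab1, the gene of stabilin-1, so it has no value here. The samples are NR8383 cells, a macrophage line established by lavage of the lung of a normal rat and described as being after 20 passages. They had been exposed for 4 h to Printex90, a commercial carbon black, at 0.9 cm2/cm2, and carry the label ALI. The labels' protocol describes seeding in flasks, so how the particles reached the cells is not settled by the labels. Total RNA of 4 biological replicates was hybridised to 1-colour Agilent arrays, 1 array each. Being a single line grown in culture, partly adherent and partly floating, these cells model an alveolar macrophage only in part. Untreated cells, which the series design names as the control, were not analysed here, and the values describe exposed cells alone.

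Scavenger receptors are a loose family of surface and endosomal proteins that bind polyanionic or modified ligands, such as oxidised lipoproteins, dying cells, bacteria and mineral or carbon particles. They are grouped into classes by structure. Class A receptors are trimers with a collagen-like stalk, class B receptors cross the membrane at both ends of the chain and carry lipid, and other classes use mucin-like, lectin or cysteine-rich domains. In alveolar macrophages MARCO and MSR1 are the receptors best known for taking up uncoated particles. The transcription factor PU.1, encoded by Spi1, and the lipid sensor PPARG are known regulators of some of these genes in macrophages.

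The promoters of 3 members are shown because these members span the range seen on the arrays: Cd36 and Cd68 were well above background on all 4 arrays, and Marco lay near background. Each is the 250 bases before the transcription start in RefSeq (build GRCr8), with motif matches in capitals. Cd36 lies at chr4:18246332-18246581 on the plus strand, Cd68 at chr10:54882442-54882691 on the minus strand and Marco at chr13:34201256-34201505 on the minus strand.
Cd36: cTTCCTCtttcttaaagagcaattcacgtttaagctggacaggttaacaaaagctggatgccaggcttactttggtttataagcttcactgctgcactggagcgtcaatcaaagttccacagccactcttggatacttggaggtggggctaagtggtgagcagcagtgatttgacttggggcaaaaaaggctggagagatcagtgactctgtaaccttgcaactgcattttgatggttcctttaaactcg
Cd68: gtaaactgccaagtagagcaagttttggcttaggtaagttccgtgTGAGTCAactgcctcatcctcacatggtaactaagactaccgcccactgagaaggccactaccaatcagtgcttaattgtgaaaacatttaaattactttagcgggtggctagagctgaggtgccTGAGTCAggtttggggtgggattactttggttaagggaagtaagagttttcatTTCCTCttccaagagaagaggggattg
Marco: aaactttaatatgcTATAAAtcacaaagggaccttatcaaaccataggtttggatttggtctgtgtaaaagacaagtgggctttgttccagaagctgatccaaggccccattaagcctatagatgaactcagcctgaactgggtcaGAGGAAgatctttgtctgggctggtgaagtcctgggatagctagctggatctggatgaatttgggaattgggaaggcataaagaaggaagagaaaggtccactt
The searched motifs were the PU.1 core GAGGAA, the core AGGTCA of PPAR and RXR sites, the AP-1 site TGANTCA, the E-box CACGTG of MITF and TFEB and the core TGACNNNGC of the antioxidant response element, all on both strands, and the TATA box TATAAA on the forward strand. The PU.1 core was found in 6 of the 8 member promoters in the table, against 23.3% of all 33469 promoters. These were the promoters of Cd36, Marco, Stab1, Colec12, Mrc1 and Cd68, so both members well above background and members near it hold the letters. In Cd68 the core lies 27 to 22 bases before the start, in Marco 104 to 99 bases and in Cd36 249 to 244 bases. Cd68 holds 2 AP-1 matches, TGAGTCA, starting 205 and 80 bases before the start, a motif found in 6.34% of promoters. In Marco the letters TATAAA lie 236 to 231 bases before the start (8.06% of promoters). None of the 8 windows holds the PPAR and RXR core (14.1%), the E-box (5.59%) or the antioxidant core (10.1%). The capitals do not overlap between motifs in these 3 windows, and a match is a description of the letters, not a bound site. Promoters of Msr1 and Scarb1 are named only.

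All 4 arrays came from 1 slide and 1 scan, per the file headers, so neither could be tested as a batch. The 75th percentile of the probes was an intensity of between 83.8 and 127, and no spot was saturated. Between 8917 and 9985 named genes were well above background on an array, most on replicate 4. On all 4 arrays 50.8% of named genes were well above background, the share beside which the marker counts stand. Of the macrophage markers 8 of 10 were well above background on all 4 arrays (Csf1r, Spi1, Cd14, Lyz2, Aif1, Itgam, Fcgr1a and Tyrobp), and Adgre1 was so on 2 arrays. Of the alveolar macrophage markers 4 of 7 were (Pparg, Fabp4, Csf2ra and Abcg1), while Csf2rb was so on 3 arrays and Car4 and Ctsk on none. Other cell types that carry scavenger receptors gave 3 of 9 endothelial markers (Pecam1, Cdh5 and Vwf), 2 of 5 of the sinusoidal endothelium of the liver (Fcgr2b and Dnase1l3), 2 of 5 of adipocytes (Cidec and Cfd) and 0 of 4 of platelets. The endothelial markers Kdr, Tek, Cldn5, Emcn, Tie1 and Flt1 were on no array well above background. The summed level of Pecam1, Cdh5 and Vwf ran from 4.70 to 5.05 over the arrays, with Vwf alone at 4.78 ± 0.15 (SD, n = 4). Vwf rested on 1 of its 2 probes, and their mean was 0.41. Markers of lung epithelium gave 1 of 8 (Foxj1), of dendritic cells 1 of 4 (Clec9a), of neutrophils 0 of 4 and of fibroblasts 1 of 5 (Dcn). Foxj1 and Clec9a each rested on 1 of their 2 probes, with means over both of -1.36 and -2.68. The part of such other cell types or their transcripts in the values below was not tested.

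The members were counted by the arrays on which they were well above background. Msr1, Cd36, Scarb1, Scarb2, Mrc1 and Cd68 were so on all 4 arrays, that is 6 of 9 measured genes (66.7%). Among all named genes the share was 50.8%, and the difference was not tested. Whether a probe passes is read from the flag that the scanner software gives each spot. Counted by probe, 8 of 11 were, against 37.5% of the 45598 probes on the array, named or not. Of the latter 24489 could not be named, while all member probes are named, so these shares are of unlike sets. Marco was well above background on replicate 4 alone, as 6.12% of named genes were on exactly 1 array. Cd163 and Colec12 were so on no array, like 36.9% of named genes. With the software's less strict flag the count of genes on all 4 arrays was again 6, against 61.7% of named genes. In RNA from a whole culture, fewer cells carrying a transcript and less of it per cell cannot be told apart.

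**Figure D1:**
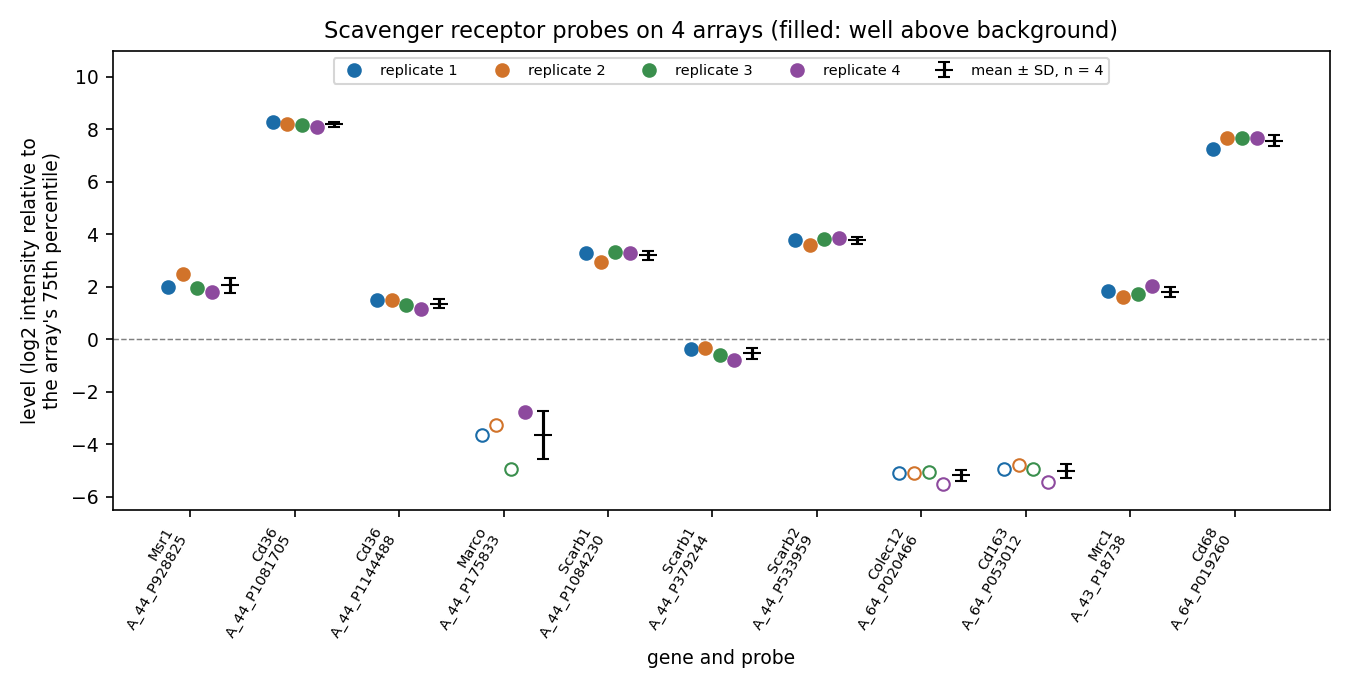
Level of each scavenger receptor probe on each array (y axis, log2 intensity relative to that array's 75th percentile), with genes and probes along the x axis, 1 point per replicate and the mean ± SD (n = 4) in black. Open points were not well above background. The points of Colec12 and Cd163 and 3 of the 4 points of Marco are open, and the pairs of probes of Cd36 and of Scarb1 lie at different levels.

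The class A receptors divided into Msr1, which was measured well, and Marco and Colec12, which lay near or in the background. Msr1, whose product SR-A takes up modified lipoproteins and many particles, had a processed intensity of 401, 464, 395 and 441 on replicates 1 to 4. Its level, the log2 intensity relative to the array's 75th percentile, was 2.01, 2.47, 1.97 and 1.80, with a mean of 2.06 ± 0.29 (SD, n = 4). Replicate 2 stood highest and the other replicates lay between 1.80 and 2.01. The spots around the Msr1 spot were also brighter on replicate 2, by a median of 0.29 over the other arrays, against 0.08 over all spots of that array, and the part of this in the Msr1 value was not tested. Msr1 had a larger SD than 80.1% of the 17093 probes well above background on all 4 arrays. This rests on replicate 2, without which the SD of Msr1 was 0.11. With normexp on median signals its SD was 0.19.

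Marco encodes the receptor that binds unopsonised dusts and bacteria on resident alveolar macrophages. Its intensity was 7.89, 8.66, 3.29 and 18.4 on replicates 1 to 4, which was 2.26, 2.74, 0.997 and 5.60 times the software's error of the signal. The signal was thus no larger than its error on replicate 3 and highest on replicate 4. The highest signal of any probe not well above background was 17.7, 15.4, 17.6 and 16.7 on the same arrays, so Marco passed that mark on replicate 4 by a small margin. With the less strict flag it was called on replicates 1, 2 and 4. Replicate 4 was also the array on which the most named genes were well above background (60.2%, against 53.8% to 55.7% on the others). The 143 spots around Marco were well above background in 58.0% of cases on replicate 4, against 56.7% of all spots of that array, and their median level lay at -0.12 relative to the other arrays, the same as over the whole array. Its level had a mean of -3.66 ± 0.92 (SD, n = 4), a spread that includes a value at the error limit. With normexp on median signals, which adds an offset of 50, its levels were -1.12, -1.08, -1.20 and -1.22, with an SD of 0.06. Replicate 4 was then lowest, so the order of the arrays for Marco depended on the processing.

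Colec12, a scavenger receptor with a lectin domain known mainly from endothelium, had intensities of 2.94, 2.44, 3.00 and 2.81 on replicates 1 to 4. Each was about 1 time its error (0.997, 0.993, 0.997 and 0.997), so these values have no order and set only that the probe was not above background.

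**Figure D2:**
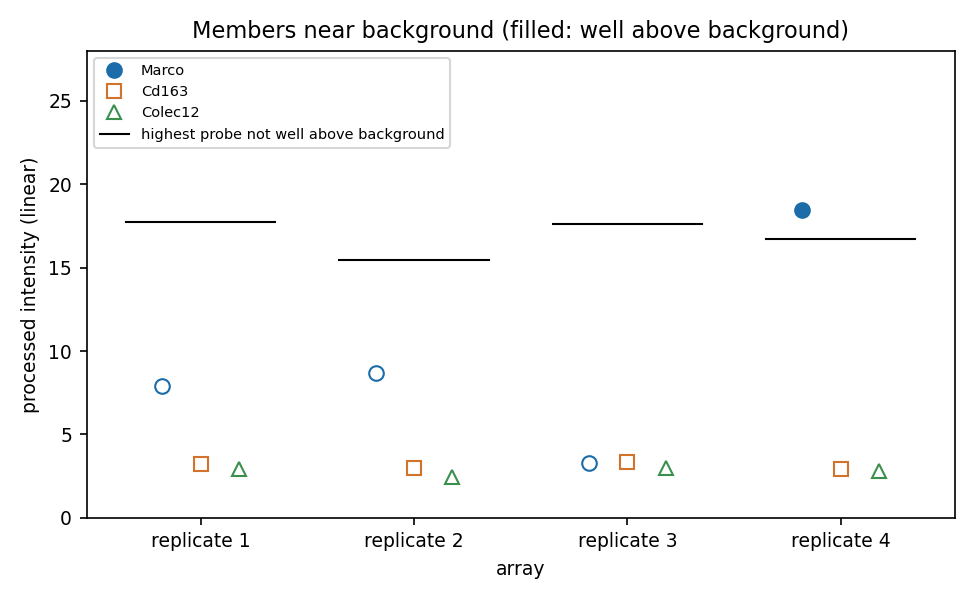
Processed intensity (y axis, linear scale) of the Marco, Cd163 and Colec12 probes on each array (x axis), with filled symbols where the spot was well above background and a black line at the brightest probe not well above background on that array. Marco lies above the line on replicate 4 only, at 18.4, and Cd163 and Colec12 lie between 2.44 and 3.32 throughout.

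The class B receptors were all measured. Among the member probes, the Cd36 probe A_44_P1081705 had the smallest SD of level over the arrays, 0.09. The value of the gene is not closely determined, since this probe had a mean level of 8.19 and the other Cd36 probe, A_44_P1144488, one of 1.36. CD36 takes up oxidised lipoproteins and long-chain fatty acids and takes part in the clearance of dying cells. Its probe A_44_P1081705 is printed 10 times on each array. The kept spots ran from 25711 to 33468 with a median of 31676 on replicate 1, from 18967 to 26868 (median 25921) on replicate 2, from 25211 to 31990 (median 28826) on replicate 3 and from 29485 to 38992 (median 35328) on replicate 4. In intensity the kept spots of replicates 2 and 4 did not overlap, although a spot of replicate 2 left out by the outlier flag, at 30300, would reach into the range of replicate 4. The spot of row 15 was the lowest kept spot on replicates 1, 2 and 3, and on replicate 4 it was the brightest and was left out by the scanner's outlier flag. The coefficient of variation between kept spots was 8.05%, 10.3%, 6.52% and 8.69% on the 4 arrays, from 9, 8, 10 and 9 spots.

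Relative to the 75th percentile the Cd36 levels were 8.30, 8.22, 8.16 and 8.08, with a mean of 8.19 ± 0.09 (SD, n = 4). On this scale replicate 1 was highest and replicate 4 lowest, while in intensity replicate 4 was highest. Single spots within an array had an SD of 0.10 to 0.17 on this scale. The array means differed by up to 0.22, more than spot noise gives for means over such spots (limma, moderated F test over spots, adjusted p = 0.00856). This test compares arrays with spot noise and not conditions, and 82.1% of the 1350 probes with at least 3 kept spots on each array were called the same way. It did not pair spots by their position, which is the same on every array. The array means also cover partly different positions, since the row 15 spot was left out on replicate 4 only. Without replicate 1 the adjusted p was 0.114 and without replicate 4 it was 0.0958 (limma). Which array is highest or lowest depended on the scaling: with quantile normalization of the spots replicate 2 was highest and replicate 3 lowest (limma, adjusted p = 0.0168), and with the array median replicate 3 was highest and replicate 4 lowest. Only 14.5% of the probes well above background on all 4 arrays had a smaller SD. The Cd36 level is a mean over 8 to 10 kept spots, whereas only 1350 probes had at least 3, so this comparison is not of like values. With the array median its SD was 0.36, above those of Mrc1 (0.34) and Cd68 (0.35). It then lay below those of the other member probes well above background on all arrays.

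The other Cd36 probe, A_44_P1144488, is printed once and carries the same RefSeq accession, NM_031561. It gave intensities of 282, 237, 246 and 280 and levels of 1.50, 1.50, 1.29 and 1.14, with a mean of 1.36 ± 0.18 (SD, n = 4). The 2 probes thus disagree on how bright the gene is on every array. Relative to the 75th percentile both were lowest on replicate 4, and in intensity both were lowest on replicate 2. With quantile normalization the bright probe was lowest on replicate 3. The mean of both probes was 4.77, which describes neither. Where on the transcript each probe lies was not analysed here.

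**Figure D3:**
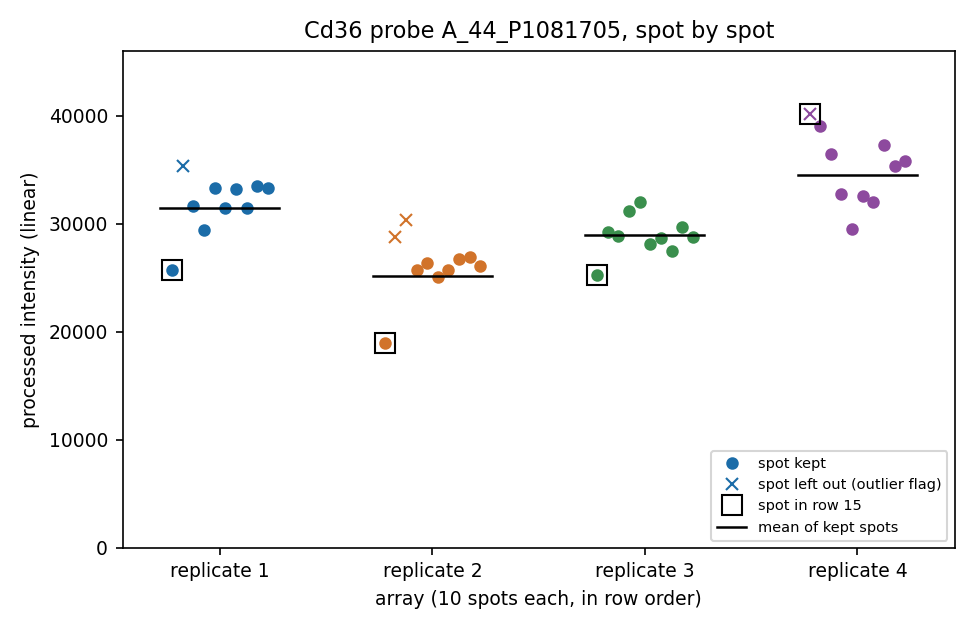
Processed intensity (y axis, linear scale) of the 10 spots of the Cd36 probe A_44_P1081705 on each array (x axis, spots in row order), with crosses for spots left out by the outlier flag, squares around the spot of row 15 and a line at the mean of the kept spots. The row 15 spot is the lowest on replicates 1, 2 and 3 and the highest on replicate 4.

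Scarb1 encodes SR-B1, the receptor for high-density lipoprotein, and also has 2 probes with 1 accession. Probe A_44_P1084230 gave intensities of 968, 650, 999.7 and 1231 and levels of 3.28, 2.96, 3.31 and 3.28, a mean of 3.21 ± 0.17 (SD, n = 4). Probe A_44_P379244 gave intensities of 77.0, 66.1, 66.1 and 74.0 and levels of -0.37, -0.34, -0.61 and -0.78, a mean of -0.53 ± 0.21 (SD, n = 4). The 2 probes order the arrays differently: replicate 2 is lowest by the first and highest by the second. The spots around them lay at 0.02 and 0.23 on replicate 2 relative to the other arrays, and the part of this in the values was not tested. The mean over both probes was 1.34.

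Scarb2 encodes LIMP-2, a lysosomal membrane protein that carries glucocerebrosidase to the lysosome. Its intensity was 1361, 998, 1437 and 1872, and its level 3.77, 3.58, 3.83 and 3.88, with a mean of 3.77 ± 0.13 (SD, n = 4). Replicate 2 was lowest in intensity and in level, and 32.1% of the probes well above background on all arrays had a smaller SD.

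The members of other classes split between Cd68 and Mrc1, which were well above background, and Cd163, which was not. Cd68, a mucin-like glycoprotein of late endosomes and lysosomes and a common macrophage marker, had intensities of 15050, 17023, 20407 and 26075. Its levels were 7.24, 7.67, 7.66 and 7.68, with a mean of 7.56 ± 0.21 (SD, n = 4). Replicate 1 stood below the other replicates, which lay between 7.66 and 7.68. The spots around it lay at -0.08 on replicate 1 relative to the other arrays, against 0.02 over all spots of that array. Replicate 1 stayed lowest under the 4 other scalings tried, while the highest array was replicate 4 under 3 of them and replicate 3 with the array median.

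Mrc1, the mannose receptor, which binds sugars of microbes and glycoproteins, had intensities of 356, 257, 337 and 519. Its levels were 1.84, 1.62, 1.74 and 2.03, with a mean of 1.81 ± 0.18 (SD, n = 4), highest on replicate 4 and lowest on replicate 2. Cd163, the receptor for haemoglobin bound to haptoglobin and a marker of many tissue macrophages, had intensities of 3.25, 3.00, 3.32 and 2.94. As for Colec12, each was about the size of its error (0.997, 0.994, 0.997 and 0.995 times), so its probe gave no value above background.

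Relative to the 75th percentile, the 8 member probes well above background on all arrays repeated about as well as other probes did. The 2 sets were not matched for level, and how close they lie depended on the setting, as given below. Their median SD was 0.176, within a range of 0.0934 to 0.287, against a median of 0.175 over all 17093 such probes. No array was high or low for all of them. Replicates 1 to 4 were highest for 2, 2, 1 and 3 probes and lowest for 1, 3, 0 and 4 probes, and the median deviation of the 8 probes from their 4-array mean was 0.06, 0.07, -0.05 and -0.02. With the array median as the scale, replicate 3 was instead highest for all 8 probes. That median was an intensity of 7.84, 8.43, 6.29 and 12.8 on replicates 1 to 4, lowest on replicate 3. On each array it lay below the brightest probe not well above background (17.7, 15.4, 17.6 and 16.7). The part of this in the order of the arrays was not tested. The highest replicate was the same as before for 6 probes under quantile normalization and for 6 with the 75th percentile of detected probes.

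**Figure D4:**
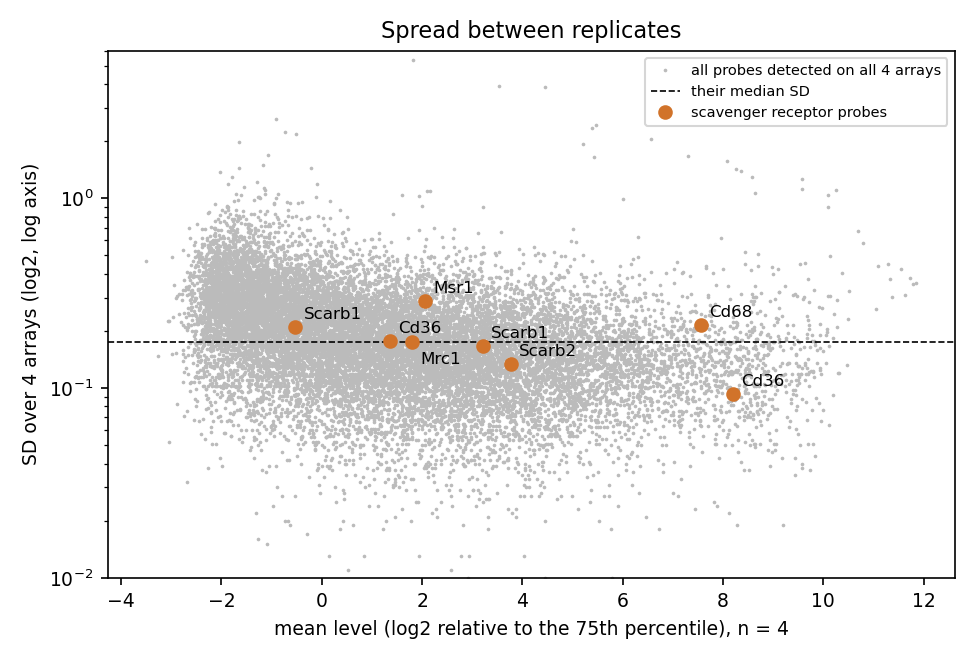
SD over the 4 arrays (y axis, log2 units on a log axis) against mean level (x axis, log2 relative to the 75th percentile) for the 17093 probes well above background on all 4 arrays (grey) and the 8 scavenger receptor probes among them (orange), with a dashed line at the median SD of 0.175. On this scale Msr1 has the largest SD of the 8, at 0.287, and the bright Cd36 probe the smallest, at 0.0934.

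Of 22 measured genes in a list of further scavenger receptors, 9 were well above background on all 4 arrays (40.9%, against 50.8% of all named genes), 5 on some arrays and 8 on none. With the less strict flag 14 of the 22 were counted, against 61.7% of named genes, and the difference from the members was not tested. Scarf1, an endothelial class F receptor also found on macrophages, had a level of -1.96 ± 0.31 (SD, n = 4), Cd6, a cysteine-rich receptor best known from T cells, 0.28 ± 0.28, and Olr1, the receptor LOX-1 for oxidised lipoprotein, 2.89 ± 0.29 (SD, n = 4 for both). Cd6 rested on 1 of its 2 probes, and their mean was -1.15. Scara3, Scara5, Stab2, Cd5l, Cd5, Lrp2, Cd209a and Cubn were well above background on no array.

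Of the partners and signal proteins of the class B receptors 16 of 20 (80%) were well above background on all arrays. Among all named genes the share was 50.8%. The Src family kinases Fyn and Lyn, which carry the CD36 signal, had levels of 0.70 ± 0.09 and 5.58 ± 0.13, and the kinase Syk one of 3.47 ± 0.13 (SD, n = 4 for all). The mean over the 2 probes of Syk was 1.15. Pdzk1, an adaptor that holds SR-B1 at the membrane in liver, was on no array well above background, and neither were Src, Thbs1, which encodes a ligand of CD36, or Cav1.

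Of the regulators of scavenger receptor transcription 15 of 20 (75%) were well above background on all arrays, against 50.8% of all named genes. Pparg, which drives Cd36 in macrophages, had levels of 6.45, 5.93, 6.22 and 6.40 on replicates 1 to 4, a mean of 6.25 ± 0.24 (SD, n = 4). Its partner Rxra had a level of -1.45 ± 0.31 and Nr1h3, the oxysterol receptor LXR alpha, one of 6.31 ± 0.13 (SD, n = 4 for both). Ppara, the fatty acid sensor of liver and muscle, was well above background on no array. With 4 arrays, under the 6 that a correlation across samples needs, no relation between a regulator and a receptor was computed.

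Genes that act after a receptor has bound its load were all well above background where they could be measured. Of the 18 listed for traffic and turnover, Ap2a1 had no named probe. All 17 measured genes of receptor traffic and turnover were well above background on all arrays, among them Cltc, the clathrin heavy chain, at 6.74 ± 0.35, Ap2m1, a subunit of the clathrin adaptor, at 7.40 ± 0.20, and the dynamin gene Dnm2 at 6.19 ± 0.39 (SD, n = 4 for all). Dnm2 rested on 1 of its 2 probes, and their mean was 4.48. So were all 12 genes of sterol and lipid handling, among them the cholesterol exporter Abca1 at -0.39 ± 0.10, the exporter Abcg1 at 8.34 ± 0.16 and Soat1, which esterifies cholesterol for storage, at -0.28 ± 0.21 (SD, n = 4 for all). Against the 50.8% of all named genes these shares are descriptions and were not tested.

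**Figure D5:**
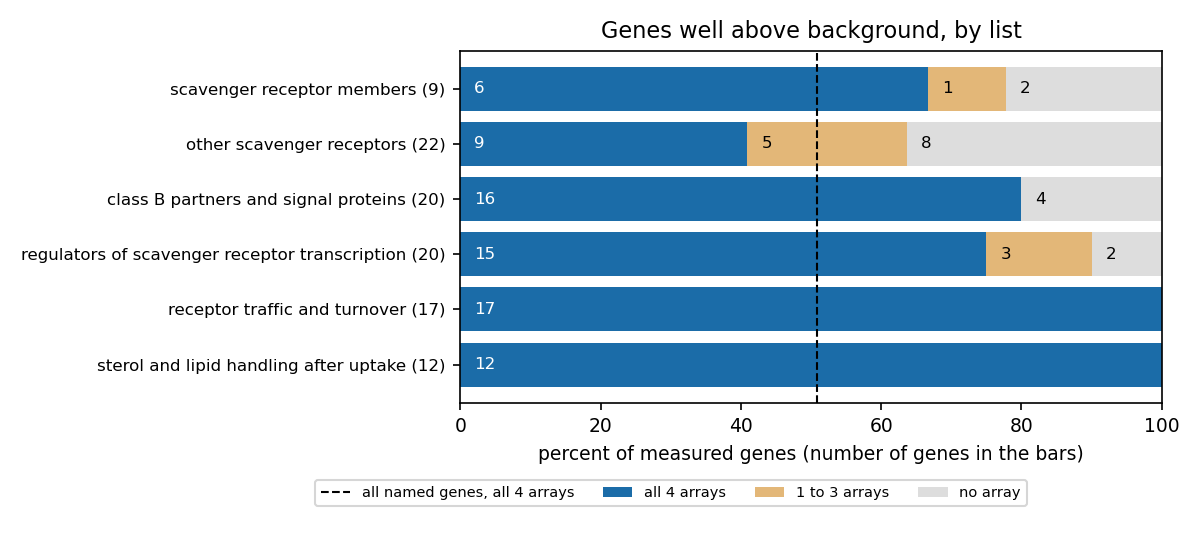
Share of the measured genes of each list (y axis, with the number measured) that were well above background on all 4 arrays, on 1 to 3 arrays or on no array (x axis, percent, with the number of genes in each bar), and a dashed line at the 50.8% of all named genes on all 4 arrays. All measured genes of the traffic and sterol lists were well above background on all 4 arrays. The further scavenger receptors lie below the line at 40.9%, a count that rises from 9 to 14 genes with the less strict flag.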

How the data were processed

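The members and lists were chosen with earlier results of these data known. Spot intensities on a linear scale were deposited by the authors, and the submitters' processing notes name Agilent's Feature Extraction, version 11.0.1.1. Background had been subtracted from this signal, per the file headers, with no scaling between arrays. Other flags deposited in the same files mark spots above background, saturated or outlying.

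Probes were named by matching RefSeq accessions without versions to the RefSeq gene table of GRCr8, which left 24489 of 45598 probes unnamed. Since the grid's annotation uses rn4, no gene coordinates other than those of the promoter table are given. Spots flagged as non-uniform or population outliers were left out (750 to 1551 an array, 0 to 2 of them of members). Log2 signals were averaged over spots, and the array's 75th percentile over non-control probes was subtracted. Member probes are given singly. For other genes the probe with the highest mean is given. Local brightness is the median over spots within 8 rows and 4 columns. Spots of probes with at least 3 kept on each array were fitted with limma 3.58.1 in R 4.3.3, with Benjamini-Hochberg adjustment and a threshold of 0.05, after a test on simulated data. Python 3.11.15 did the rest. Every member probe is named, as are the first 3 genes of each other list well above background on all arrays, the genes on no array, and the markers found on all arrays. A gene of these lists is counted but not reported here by name. The number of arrays, 4, limits the precision. Alternatives were other detection rules, scalings and windows, flagged spots kept, and each replicate left out.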

Additional observations from a re-analysis of the deposited data

Results flagged for a closer look

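In 2 member probes with a signal above background a single array lay far from the others, with a gap beyond Dixon's critical value for 4 samples. Chance alone gives this in about 1 in 20 groups of 4, and 11 probes were tested. Cd68 had a level of 7.24 on replicate 1 against 7.66 to 7.68 on the others (0.95 of the range). The Scarb1 probe A_44_P1084230 had 2.96 on replicate 2 against 3.28 to 3.31 (0.91 of the range), while the other Scarb1 probe was highest on that array. The same limit was passed by Colec12, at -5.50 on replicate 4 against -5.10 to -5.07 (0.931 of the range), but its signal did not exceed its error on any array and its values have no order. Its intensity was lowest on replicate 2, and with quantile normalization replicate 4, at -5.18, lay inside the range of the others. With that normalization Cd68 stood at 7.20 on replicate 1 against 7.59 to 7.77 on the others. The Scarb1 probe A_44_P1084230 stood at 2.99 on replicate 2 against 3.23 to 3.33. Neither gap then passed Dixon's limit, so both flags depend on the scaling.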

How the results depend on the processing

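The count of 6 member genes on all 4 arrays was the same with the less strict flag, with 3 of 4 arrays, with every probe required, with flagged spots kept and without each replicate. The named genes ranged from 45% to 61.7%. With the less strict flag 14 further scavenger receptors were counted, in place of 9. The median SD of the member probes was 0.373 with the array median as the scale, where that of all detected probes was 0.388. The array median lay in the range of the background, and the cause was not tested. With quantile normalization the 2 medians were 0.177 and 0.171, and with normexp on median signals 0.183 and 0.139. Without replicates 1 to 4 in turn the members gave 0.188, 0.132, 0.208 and 0.142, against 0.161, 0.173, 0.16 and 0.166. How close the 2 medians lie thus depended on the setting. The adjusted p of the Cd36 array difference was 0.0025 to 0.114 with 1 replicate left out each time, which leaves fewer arrays (limma), and 1.29e-05 without the row 15 spot, an alternative chosen after seeing the data. Quantile normalization moved the member levels by -0.09 to 0.06, and leaving out a replicate by -0.30 to 0.42. Normexp on mean signals was not run, since the files used hold no mean signal; normexp on median signals, chosen after seeing the data, moved them by -0.87 to 3.90, most for the probes near background. Low signal over background limits Marco, Cd163 and Colec12. No paired analysis was possible because there is 1 group.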

Other observations

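Further receptors well above background on all 4 arrays, given here after their values were seen, were Cxcl16, a chemokine that also binds oxidised lipoprotein, at 3.40 ± 0.17, Lrp1, the large endocytic receptor, at 0.95 ± 0.36, the collagen receptor gene Mrc2 at 1.23 ± 0.08, Cd14, the lipopolysaccharide co-receptor, at 2.39 ± 0.19, Clec7a, the beta-glucan receptor Dectin-1, at 6.35 ± 0.16 and Lgals3, the sugar-binding galectin-3, at 10.28 ± 0.29 (SD, n = 4 for all). Mrc2 rested on 1 of its 2 probes, and their mean was -0.97. The mean over the 2 probes of Clec7a was 5.21 and over those of Lgals3 10.14. Lrp1 was lowest on replicate 1 (0.46) and highest on replicate 4 (1.31).

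Megf10, which encodes a receptor for dying cells, was well above background on replicate 3 alone. The brightest of its 3 probes had levels of -5.07, -3.73, -0.14 and -4.57 on replicates 1 to 4. The mean over all 3 probes and 4 arrays was -4.56. It was singled out after its values were seen.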
